A study of Mus musculus with 2 samples.

Results

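The dopamine receptor genes Drd1a (now named Drd1), Drd2, Drd3, Drd4 and Drd5 and the dopamine transporter gene Slc6a3 were followed in postpartum brain with and without TDAG51 (gene Phlda1). They were chosen by name, as all probes that carried one of these gene names and were no control spots, which gave 6 genes of 27962 gene names and 9 probes of 41174. The question of the study was which genes differ in the brain of TDAG51-deficient dams and return with brain-specific expression of TDAG51. Brains came from C57BL/6J females of 8 weeks on postpartum day 0. On the first of 2 two-colour Agilent arrays, RNA of a TDAG51-/- sample (TDAG51 knockout, Cy3) was hybridized together with that of a TDAG51+/+ sample (wild type, Cy5). On the second, a TDAG51-/- sample (Cy3) was hybridized together with a TDAG51-/-Tg2 sample (Cy5). TDAG51-/-Tg2 dams lack the endogenous gene, as TDAG51-/- dams do, and carry a TDAG51 transgene under the brain-specific BAI1-AP4 promoter, which is active mainly in cerebral cortex and hippocampus, and they come from a single transgenic line. The number of dams in each sample is not stated, each comparison has 1 array and the dyes were not swapped. Therefore no test across animals was possible, and a ratio past 2-fold, the threshold in the study's methods, is a description of these samples.

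Dopamine is made from tyrosine by tyrosine hydroxylase (Th) and aromatic amino acid decarboxylase (Ddc) in neurons of the midbrain and a few other places, loaded into vesicles by Slc18a2, and taken back up after release by the transporter Slc6a3. Its receptors form a D1-like class (Drd1a, Drd5), which raises cyclic AMP, and a D2-like class (Drd2, Drd3, Drd4), which lowers it. The projection neurons of the striatum carry mostly Drd1a or mostly Drd2, the midbrain neurons carry Drd2 as an autoreceptor, and in the pituitary Drd2 restrains prolactin release, while dopamine signalling in the forebrain takes part in maternal motivation.

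The probes were 60 bases long, and their coordinates are those of the array design on mm7. The Drd1a probe (NM_010076) lay at chr13:53093438-53093497 on the minus strand. All the others lay on the plus strand. For Drd2 (NM_010077), probe 1 lay at chr9:49382447-49382506 and probe 2 at chr9:49383161-49383220. The Drd3 probe (NM_007877) had ends at chr16:43526351-43557232, a span of 30882 bases for a probe of 60, so it joins sequence that an intron separates in the genome. For Drd4, probe 1 (NM_007878) lay at chr7:137712047-137712106 and probe 2 (BC051421) at chr7:137713322-137713381. For Drd5 (NM_013503), probe 1 lay at chr5:37403435-37403494 and probe 2 at chr5:37401721-37401780. The Slc6a3 probe (NM_010020) lay at chr13:70510016-70510075. Where a gene had 2 probes, probe 1 was the one with the higher mean intensity. Each accession is that of a transcript, and the place of each probe within the transcript is not given in the sources used here. The following sequences, 5′ to 3′ and in lower case because no single stretch is singled out, are those on which the differences described here rest. The first 30 bases are given for Drd1a, which differed most, for Slc6a3 and for Drd2 probe 2, which differed from Drd2 probe 1. The whole sequence is given for Drd2 probe 1 and for Drd4 probe 1, the probe with ratios of opposite sign.
Drd1a, first 30 bases: ctcaagaagaaatccaactttagatttctg
Slc6a3, first 30 bases: tggctgagaagaatcaggtttaccatctcc
Drd2 probe 2, first 30 bases: ccaactctagtgtgaatccctactttccat
Drd2 probe 1: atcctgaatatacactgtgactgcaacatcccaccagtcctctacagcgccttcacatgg
Drd4 probe 1: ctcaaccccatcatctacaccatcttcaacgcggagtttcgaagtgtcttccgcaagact

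The first array had a median probe intensity of 338 in Cy3 and 364 in Cy5, and the second had 336 and 385. Log2 ratios of TDAG51-/- over control are given with the scanner's error of the log ratio, which covers the spots of 1 array and not the spread between dams. Levels across the 4 channels are on a log2 scale after normalization between arrays. On that scale, the robust SD over 33254 probes was 0.14 between both TDAG51-/- channels and 0.40 between TDAG51-/-Tg2 and TDAG51+/+, so the former lay much closer to each other. Whether both TDAG51-/- channels hold the same RNA is not stated. The Phlda1 probe read 350 in TDAG51-/- and 7283 in TDAG51+/+ on the first array, a log2 ratio of -4.11 ± 0.46. On the second array it read 44.1 in TDAG51-/- and 50.5 in TDAG51-/-Tg2, neither well above background. The TDAG51-/- channels thus differed at this probe, with levels of 8.63 and 5.84 on the scale across arrays. Over the 33254 probes above background on both arrays, which leave this one out, 0.27% were at least 2-fold apart between these channels. The cause was not tested. Whether this probe lies in the deleted part or in the transgene is not given in the sources used here, so the transgene could not be checked with it.

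Of the 6 genes, taken at their brightest probe, only Drd1a was at least 2-fold lower in TDAG51-/- than in TDAG51+/+, and only Drd1a was at least 2-fold lower than in TDAG51-/-Tg2. Over all genes above background, the share at least 2-fold lower was 4.97% of 17294 against TDAG51+/+ and 4.21% of 17052 against TDAG51-/-Tg2, and 1.71% of 16828 were lower than both. None of the 6 genes was at least 2-fold higher, compared with 4.6% and 4.46% of all genes, and 2.64% higher than both. Counted by probe, 1 of the 8 probes above background was lower in each comparison and none was higher. Over all probes, the share lower was 4.42% and 3.86% (1.37% in both), and the share higher was 4.9% and 4.72% (2.69% in both). The median log2 ratio of the 6 genes was 0.02 against TDAG51+/+ and -0.25 against TDAG51-/-Tg2, where the medians of all genes were -0.01 and 0.01. All probes but Drd4 probe 2 were well above background in both channels of both arrays, and none was saturated. As both comparisons use the TDAG51-/- genotype, they are not independent of each other.

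Among the D1-like receptors, Drd1a, the main dopamine receptor of striatal neurons of the direct pathway, was low in both TDAG51-/- channels. Its probe had an intensity of 742 in TDAG51-/- and 4773 in TDAG51+/+ on the first array. On the second array it had 790.5 in TDAG51-/- and 5111 in TDAG51-/-Tg2. Both TDAG51-/- channels were thus below both controls. How many of all probes separate in this way was not counted, neither here nor for the genes below. The log2 ratio was -2.44 ± 0.31 against TDAG51+/+ (5.44-fold lower) and -2.42 ± 0.31 against TDAG51-/-Tg2 (5.34-fold lower). On the scale across arrays, the controls were 0.06 apart and the TDAG51-/- channels 0.09 apart, each within the spread over all probes. Ordered from the lowest ratio, Drd1a was gene 54 of 16828 against TDAG51+/+ and gene 36 against TDAG51-/-Tg2. The gene is among those that the study listed as lower from these arrays, so its direction here is not an independent finding. The study also reported it as lower in TDAG51-/- brain by real-time PCR, against TDAG51+/+ or TDAG51-/-Tg2 dams. It reported similar results with another transgenic line. In RNA of whole brain, fewer cells of a type and less RNA per cell cannot be told apart.

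**Figure D1:**
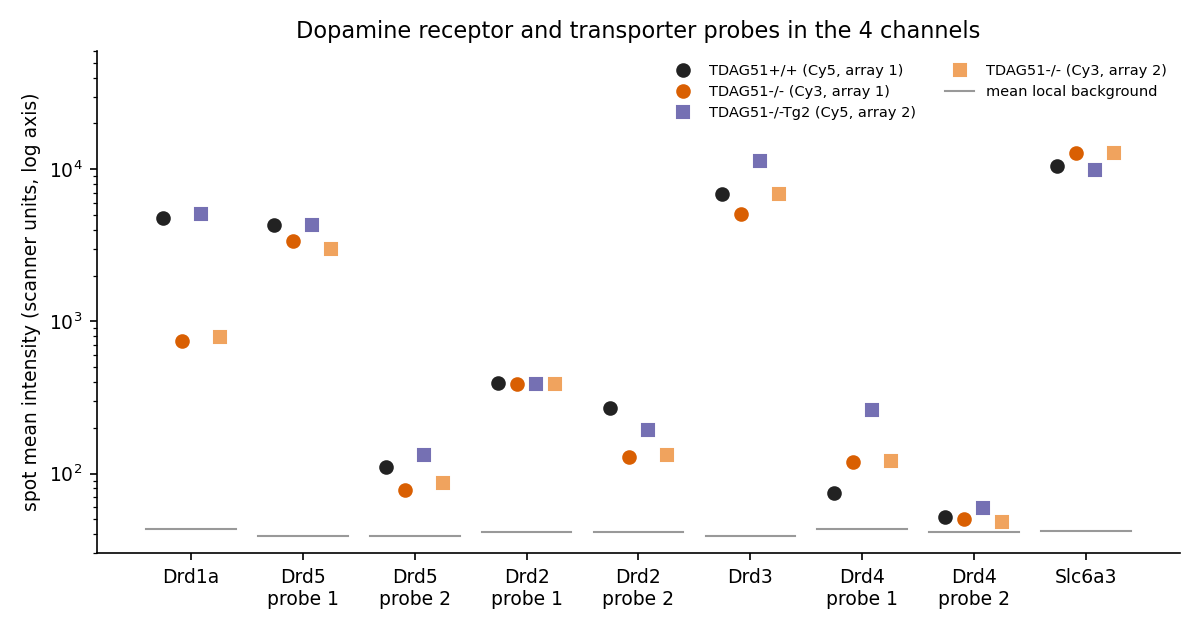
Spot mean intensity (scanner units, log axis) of the 9 probes in the 4 channels, 1 point for each channel, with the mean local background as a line. The Drd1a points of both TDAG51-/- channels lie at 742 and 790.5, below 4773 and 5111 in the controls, and the 4 points of Drd2 probe 1 lie between 386 and 395.

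Drd5, the other D1-like receptor, which has a broad and sparse expression in cortex, hippocampus and hypothalamus, did not show this difference. Its probe 1 had 3390 in TDAG51-/- and 4289 in TDAG51+/+, and 2986 in TDAG51-/- and 4311 in TDAG51-/-Tg2. After normalization the log2 ratios were -0.05 ± 0.20 and -0.22 ± 0.21. The TDAG51-/- channels themselves were 0.19 apart on the scale across arrays, about as far as the larger of these ratios. Probe 2, which was nearer to background, had 77.7 in TDAG51-/- and 110 in TDAG51+/+, and 86.2 and 132 on the second array, with log2 ratios of -0.44 ± 0.27 and -0.35 ± 0.28. The direction was thus lower in TDAG51-/- for both Drd5 probes, by less than 2-fold. The ratio of probe 2 against TDAG51+/+ was sensitive to the background correction, and it reached -1.12 with the deposited log2 ratio.

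For Drd2, the receptor of striatal indirect pathway neurons, of midbrain dopamine neurons and of pituitary lactotrophs, the probes disagreed. Probe 1 had 386 in TDAG51-/- and 395 in TDAG51+/+, and 389 in TDAG51-/- and 391 in TDAG51-/-Tg2. All 4 channels lay between 386 and 395, and the log2 ratios were 0.10 ± 0.21 and 0.20 ± 0.21. Without normalization they were -0.03 and -0.01. Probe 2, which lies downstream of probe 1 on the same strand, had 128 in TDAG51-/- and 268 in TDAG51+/+, and 133 in TDAG51-/- and 194 in TDAG51-/-Tg2. Here both TDAG51-/- channels were below both controls, and TDAG51-/-Tg2 was between them and TDAG51+/+. The log2 ratios of probe 2 were -0.96 ± 0.25 against TDAG51+/+ (1.94-fold lower) and -0.39 ± 0.23 against TDAG51-/-Tg2 (1.31-fold lower), and the former passed 2-fold with other background corrections (-1.41 with the scanner's ratio). The ratios of both Drd2 probes were 1.05 apart against TDAG51+/+ and 0.59 apart against TDAG51-/-Tg2. Among 4686 genes with exactly 2 probes well above background in both channels of the first array, the median difference was 0.37. Of these genes, 12.2% had a larger difference than Drd2. On the second array 30.6% of 4578 such genes did. The single gene value of Drd2 therefore depends on the probe, with a median over both of -0.43 and -0.09.

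The probe of Drd3, a receptor best known from the ventral striatum and the islands of Calleja, had 5096 in TDAG51-/- and 6819 in TDAG51+/+, and 6835 in TDAG51-/- and 11377 in TDAG51-/-Tg2. The TDAG51-/-Tg2 channel was the highest. The log2 ratios were -0.06 ± 0.20 and -0.28 ± 0.21, and without normalization they were -0.42 and -0.73. On the scale across arrays, TDAG51-/-Tg2 was 0.66 above TDAG51+/+, but the TDAG51-/- channels were also 0.44 apart in the same direction, against a robust SD of 0.14 over all probes. Most of the gap between the controls was thus also present between samples of 1 genotype.

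Drd4, a receptor of prefrontal cortex that is also strong in pineal gland and retina, had ratios of opposite sign in both comparisons. Probe 1 had 119 in TDAG51-/- and 74.1 in TDAG51+/+, and 121 in TDAG51-/- and 261 in TDAG51-/-Tg2. The TDAG51-/- channels were thus nearly equal, with TDAG51+/+ the lowest channel and TDAG51-/-Tg2 the highest. The log2 ratio was 0.57 ± 0.29 against TDAG51+/+ and -0.87 ± 0.25 against TDAG51-/-Tg2 (1.83-fold lower). Both passed 2-fold, in opposite directions, with offset 0 in the background correction (1.09 and -1.19), the scanner's ratio (1.42 and -1.32) or the deposited ratio (1.38 and -1.32). TDAG51-/-Tg2 was 1.51 above TDAG51+/+ on the scale across arrays, whereas the TDAG51-/- channels were 0.07 apart. A gap of at least 2-fold between these controls was found for 7.10% of 33254 probes. Probe 2 had 50.2 in TDAG51-/- and 51.8 in TDAG51+/+, and 47.7 and 59.3 on the second array, and none of its channels was well above background, so no fold is given.

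Markers of pituitary and pineal gland, tissues attached to the brain in which Drd2 or Drd4 are strong, were also measured. Prolactin (Prl) read 89.7 in TDAG51-/- and 80.2 in TDAG51+/+, but 223 in TDAG51-/- and 5192 in TDAG51-/-Tg2. Growth hormone (Gh) read 75.5 in TDAG51-/- and 74.3 in TDAG51+/+, but 109 and 1512 on the second array. These hormone genes of the anterior pituitary were thus high in the TDAG51-/-Tg2 channel and low in the other channels. By real-time PCR, the study instead reported Prl as higher in the brain of TDAG51-/- dams. The log2 ratios of Prl here were 0.13 ± 0.28 and -4.23 ± 0.49, and the cause of this difference was not tested. Prl and Gh were the only pituitary genes of 9 tested that were at least 2-fold lower than in TDAG51-/-Tg2 (4 were with the deposited ratio). Pomc had log2 ratios of -0.22 and -0.24. The summed level, given for each list over all its genes on the array, also those not above background, was 4955 in TDAG51-/- and 11282 in TDAG51-/-Tg2. On the first array it was 5115 in TDAG51-/- and 5711 in TDAG51+/+. Aanat, the enzyme that makes the melatonin precursor in the pineal gland, had log2 ratios of -0.13 and -0.67 at its brighter probe, but -0.46 and -0.03 at the other. All 3 pineal genes above background were lower than in TDAG51-/-Tg2 (median -0.80), 1 of them by at least 2-fold (Sag, with -1.07, named after its values were seen), and the defining gene Crx was not above background in any channel. The summed level of the pineal list was 627 in TDAG51-/- and 1085 in TDAG51-/-Tg2, compared with 616 and 721 on the first array. The highest Drd4 value was in the same TDAG51-/-Tg2 channel, and the part of pituitary or pineal RNA in it was not tested. Neither Drd2 probe was higher in that channel than in TDAG51+/+.

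Slc6a3, which takes dopamine back up into the neurons that released it, was higher than both controls. Its probe had 12753 in TDAG51-/- and 10572 in TDAG51+/+, and 12716 in TDAG51-/- and 9867 in TDAG51-/-Tg2. Both TDAG51-/- channels were above both controls. The log2 ratio was 0.76 ± 0.22 against TDAG51+/+ (1.70-fold higher) and 0.87 ± 0.22 against TDAG51-/-Tg2 (1.82-fold higher), below the 2-fold threshold. The size depended on the normalization, as the log2 ratios were 0.42 and 0.55 with median centring and 0.27 and 0.37 without normalization. The TDAG51-/- channels were 0.02 apart and the controls 0.13 apart on the scale across arrays.

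**Figure D2:**
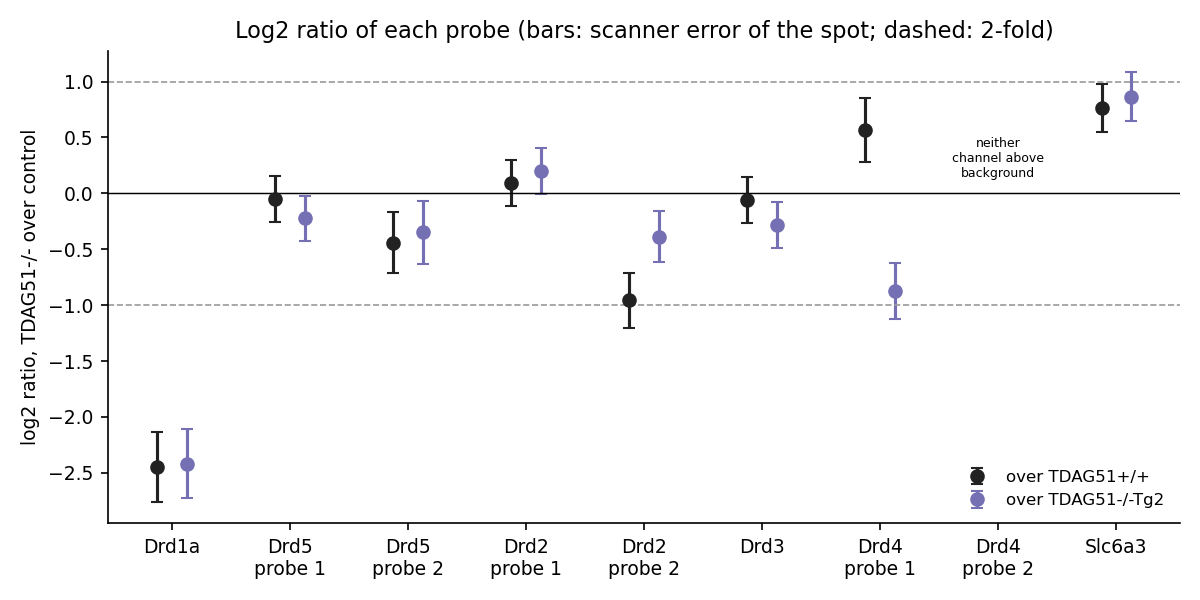
Log2 ratio of TDAG51-/- over TDAG51+/+ (black) and over TDAG51-/-Tg2 (purple) for each probe, with the scanner's error of the log ratio as bars and 2-fold as dashed lines. Drd1a lies at -2.44 and -2.42, Slc6a3 at 0.76 and 0.87, and Drd4 probe 1 at 0.57 and -0.87.

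**Figure D3:**
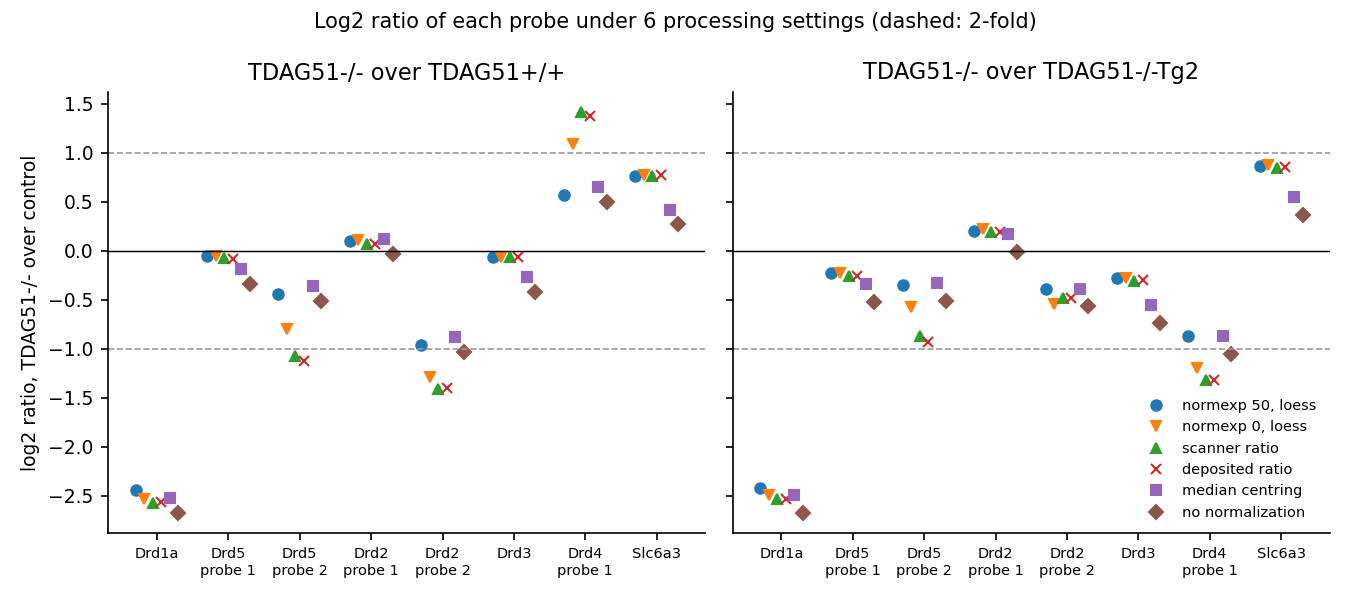
Log2 ratio of each of the 8 probes above background under 6 processing settings, 1 symbol for each setting, with 2-fold as dashed lines. Drd1a stays between -2.67 and -2.42, Slc6a3 ranges from 0.27 to 0.87, and Drd4 probe 1 keeps opposite signs in both panels.

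Of the genes that make and store dopamine, 2 of 8 were at least 2-fold higher in TDAG51-/- in each comparison and none was lower. The list median was 0.51 against TDAG51+/+ and 0.29 against TDAG51-/-Tg2. Under median centring or without normalization, 0 of the 8 were past 2-fold against TDAG51+/+, and without normalization the median against TDAG51-/-Tg2 was -0.05. Th, the rate-limiting enzyme, read 2779 in TDAG51-/- and 1619 in TDAG51+/+, and 2820 in TDAG51-/- and 691 in TDAG51-/-Tg2. Its log2 ratios were 1.01 ± 0.22 and 2.24 ± 0.30, the former just past 2-fold and below it under median centring (0.92). Th was the only gene of this list past 2-fold in both comparisons, and it was lowest in TDAG51-/-Tg2. Slc18a2, the vesicular monoamine transporter, had log2 ratios of 1.09 and 0.65. Ddc had 0.50 and 1.30 at its brighter probe, but 0.05 and -0.43 at the other. Gch1, which starts the synthesis of the cofactor tetrahydrobiopterin, had 0.73 and 0.44 at its brighter probe, but 0.08 and -0.64 at the other. The other genes of that cofactor had smaller or mixed values, with -0.42 and -0.84 for Pts, -0.25 and 0.13 for Spr, -0.44 and 0.14 for Qdpr, and 0.51 and -0.14 for Pcbd1.

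Of the 4 genes of dopamine breakdown and conversion, Dbh, which makes noradrenaline from dopamine, was at least 2.30-fold and 2.65-fold higher in TDAG51-/-. Its intensities were 174 and 207 in TDAG51-/-, and the controls were not well above background. Monoamine oxidase A (Maoa) had log2 ratios of 0.63 and 1.17, and monoamine oxidase B (Maob) had 0.08 and 0.30. Of 12 markers of midbrain dopamine neurons, 8 were above background and the defining genes Pitx3, Lmx1a, En1 and Ret were not. None of the 8 was past 2-fold against TDAG51+/+ and 2 were higher than in TDAG51-/-Tg2, with list medians of 0.07 and 0.37. Those 2, named after their values were seen, were the retinal dehydrogenase Aldh1a1 (0.61 and 1.93) and the transcription factor Foxa2, which was near background in TDAG51-/-Tg2 and exceeded it by at least 2.12-fold. Against TDAG51+/+ the log2 ratio of Foxa2 was 0.70, and it passed 2-fold there with offset 0 (1.11), the scanner's ratio (1.38) and the deposited ratio (1.36). The summed level of the list was 48641 in TDAG51-/- and 33456 in TDAG51+/+, and 54854 and 23671 on the second array. This sum is weighted to bright genes such as Aldh1a1, with log2 levels of 15.08 in TDAG51-/- and 13.15 in TDAG51-/-Tg2. It does not describe the list as a whole. Th, Slc18a2, Ddc and Maoa are also used by serotonin or noradrenaline neurons. Of 6 markers of those neurons, 5 were above background on both arrays, and these 5 were at least 2-fold higher in TDAG51-/- than in both controls. The medians were 2.61 over 6 genes against TDAG51+/+ and 2.69 over 5 genes against TDAG51-/-Tg2. The serotonin transporter Slc6a4 had 1048 in TDAG51-/- and 103 in TDAG51+/+, and 1047 and 146 on the second array, a log2 ratio of 3.26 and 2.95. The noradrenaline transporter Slc6a2 had log2 ratios of 2.63 and 2.69. The study listed Slc6a4 and Slc6a2 as higher from these arrays, so their direction is not an independent finding. Th, Slc18a2, Maoa and Dbh were higher in TDAG51-/- in both comparisons, as these markers were, but the sizes differed. Dbh is itself a gene of noradrenaline neurons. The part of such neurons in these values was not tested.

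**Figure D4:**
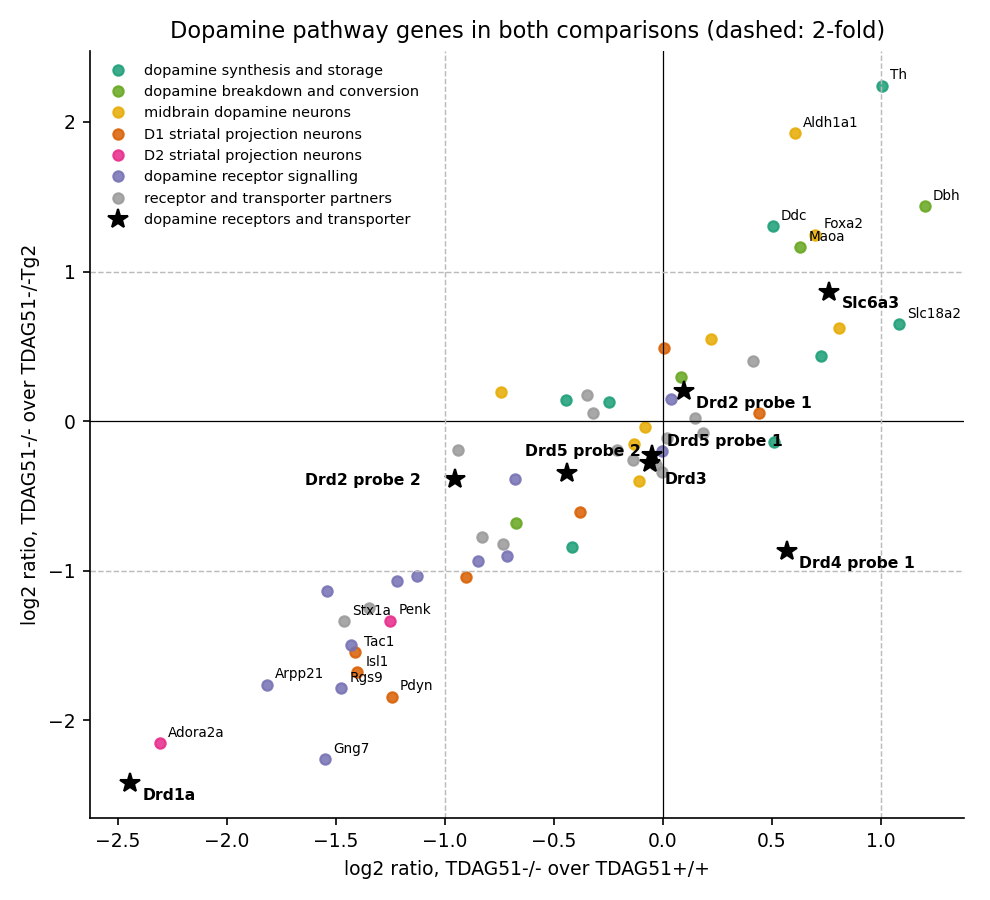
Log2 ratio against TDAG51+/+ (x axis) and against TDAG51-/-Tg2 (y axis) of the dopamine receptors and transporter (stars, every probe above background) and of the genes of 7 dopamine pathway lists (points, brightest probe), with 2-fold as dashed lines. Drd1a (-2.44, -2.42) lies beside Adora2a (-2.31, -2.15), and Slc6a3 lies on the side of Th and Slc18a2. Both axes use TDAG51-/- samples, so an upward trend is not a result by itself.

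Drd1a was not the only gene of the striatal dopamine response that was low. Among the genes named below, the study also listed Tac1, Pdyn, Penk, Adora2a, Pde2a, Stx1a and Egr3 as lower from these arrays. Their direction, and the list counts that hold them, are thus not independent findings. Of 7 further markers of striatal neurons with Drd1a, 3 were at least 2-fold lower than in both controls and none was higher, with medians of -0.90 and -1.04. Tac1, the precursor of substance P, had log2 ratios of -1.41 ± 0.24 and -1.54 ± 0.25. The opioid precursor Pdyn had -1.25 and -1.84, and the transcription factor Isl1 had -1.40 and -1.68. In each comparison 2 of the 7 were not lower, namely the muscarinic receptor Chrm4 (0.44 and 0.06) and the transcription cofactor Eya1 (0.00 and 0.49), both named after their values were seen. The other probes of Tac1 were dimmer and did not share this, with 0.13 and -0.01 for the brighter of them. With the median over all probes of each gene, the list medians were -0.38 and -0.56, and without normalization 5 of the 7 genes were lower than both controls. The summed level of the 7 genes was 31889 in TDAG51-/- and 46112 in TDAG51+/+, and 31015 and 52189 on the second array.

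Markers of the neurons with Drd2 were lower as well. Penk, the enkephalin precursor, read 9329 in TDAG51-/- and 32634 in TDAG51+/+, and 10680 and 40678 on the second array, with log2 ratios of -1.25 ± 0.23 and -1.33 ± 0.24. Adora2a, the adenosine receptor of these neurons, read 8583 in TDAG51-/- and 64547 in TDAG51+/+, and 9029 and 61406 on the second array, with log2 ratios of -2.31 and -2.15. Its other probe had -0.30 and -0.37. Gpr6 was not above background, and Gpr52 and Sp9 were not matched to a probe. The list thus rests on 2 genes.

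Of 12 genes that carry or limit the receptor signal inside striatal neurons, 7 were at least 2-fold lower in TDAG51-/- than in both controls and none was higher. The medians were -1.17 and -1.05, and 11 of 12 were below 0 in each comparison. These include Ppp1r1b (DARPP-32), the phosphatase inhibitor that Drd1a signalling switches on, which was named after its values were seen and had only -0.00 and -0.20, with 0.03 against TDAG51+/+ by the scanner's ratio and -0.47 under median centring. Gng7, a G protein subunit that couples Drd1a to adenylyl cyclase, had log2 ratios of -1.55 and -2.26 at its brighter probe and -1.39 and -1.45 at the other. Rgs9, which speeds the end of G protein signals, had -1.47 and -1.79, and the cyclic nucleotide phosphodiesterase Pde2a had -1.43 and -1.49. Arpp21, a cyclic AMP-regulated phosphoprotein, had -1.82 and -1.76 at its brightest probe but 0.10 and -0.33 at the next. Of the 15 partners and regulators of the receptors and the transporter, 2 were at least 2-fold lower than both controls, among them the syntaxin Stx1a (-1.46 and -1.34), and none was higher. With median centring or without normalization, 4 were lower.

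Among 16827 genes compared by the distance between their pairs of log2 ratios, the proton channel gene Otop2 (-2.62 and -2.31, distance 0.21) and Adora2a (distance 0.30) were among the nearest to Drd1a. Egr3, an activity-regulated transcription factor, and Kash5, known from meiosis, were at a distance of 0.40 each. Each pair rests on 2 ratios only.

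Markers of several brain regions were also past 2-fold, some lower like Drd1a and others higher like the markers of monoamine neurons. Of 6 further striatal markers, 3 were at least 2-fold lower in TDAG51-/- than in both controls, and 1, Ebf1, was higher, with 1.91 and 1.60. Their medians were -0.91 and -1.24, or -0.28 and -0.39 with the median over all probes of each gene. The summed level of the 6 genes was 9707 in TDAG51-/- and 22221 in TDAG51+/+, and 9575 and 25577 on the second array. Bcl11b, a striatal and cortical transcription factor, had -1.28 and -1.78 at its brighter probe but 1.23 and 1.63 at the other. Of 7 markers of cortex and hippocampus, 4 were lower than both controls, and of 6 of the olfactory bulb, 2 were. Another 2 olfactory bulb genes (Eomes, with 1.09, and Calb2, with 1.18, named after their values were seen) were past 2-fold the other way against TDAG51-/-Tg2. Conversely, 7 of 9 cerebellar markers were at least 2-fold higher than in both controls, with medians of 2.20 and 2.14, of which Cbln1 and Pcp2 were saturated in TDAG51-/- and have only a lower bound. The granule cell receptor subunit Gabra6, which the study listed as higher from these arrays, was 14.7-fold and 15.2-fold higher. Of 10 markers of hindbrain and brainstem, 7 were at least 2-fold higher than both controls, with Hoxb5 at 2.85 and 3.20. In each comparison 2 of the 10 were below 0. The list medians were 2.41 and 2.21, or 1.94 and 1.73 with the median over all probes of each gene. The summed level of the 10 genes was 7828 in TDAG51-/- and 2112 in TDAG51+/+, and 8068 and 2163 on the second array. A lower share of striatum in the TDAG51-/- RNA and a lower level of Drd1a within striatum cannot be told apart in these samples. The remaining lists had medians of 0.58 and 0.48 for choroid plexus, -1.42 and 1.24 for blood, -0.43 and -0.37 for neurons and glia of any region, and -0.01 and -0.03 for housekeeping genes.

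**Figure D5:**
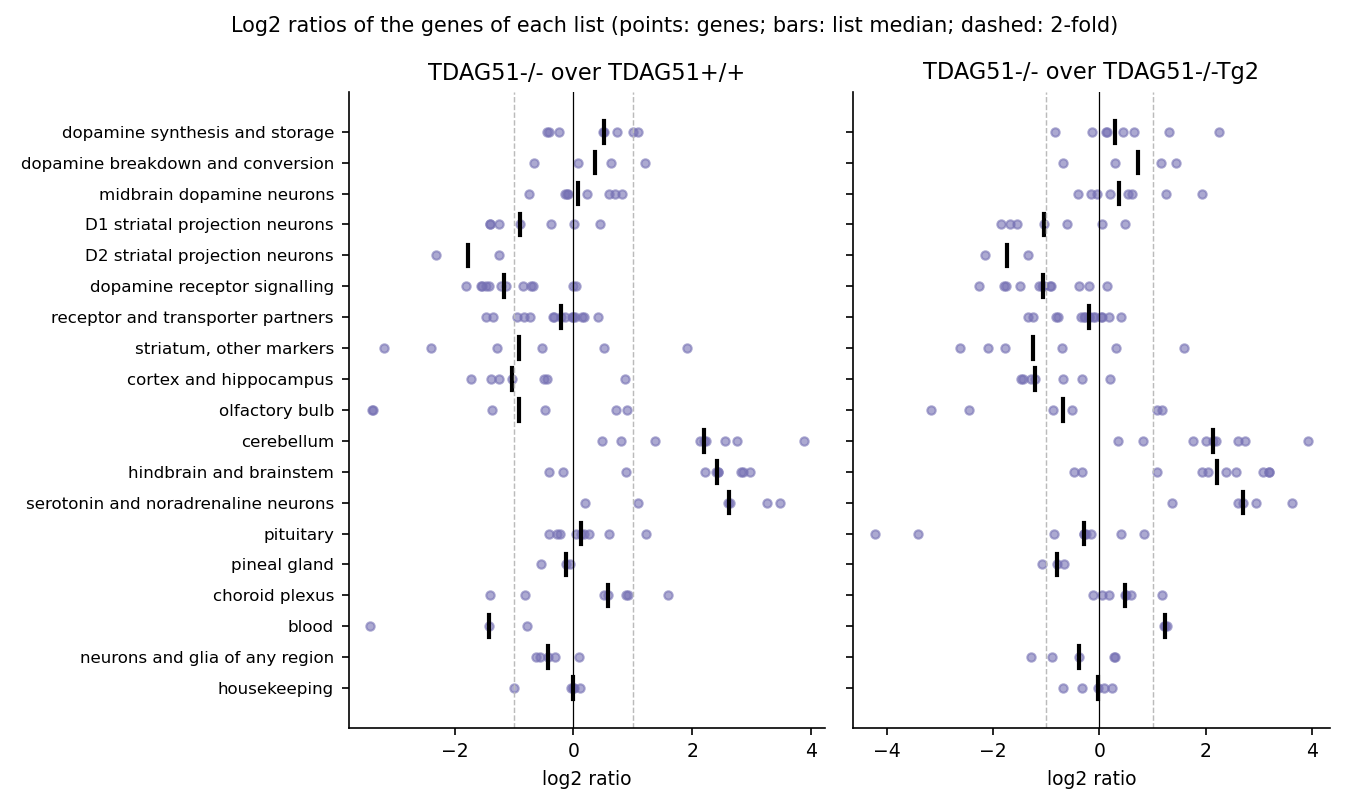
Log2 ratios of the genes above background in 19 lists (points) with the list median (bars) and 2-fold as dashed lines, against TDAG51+/+ (left) and TDAG51-/-Tg2 (right). The D1 and D2 striatal neuron lists and the receptor signalling list have medians from -1.78 to -0.90, and the cerebellum, hindbrain and monoamine neuron lists have medians from 2.14 to 2.69.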

How the data were processed

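The authors deposited the output of Agilent Feature Extraction 9.5.3.1 for both arrays, which holds the mean intensity and the local background of every spot, the software's log10 ratio (red over green) with its error and p-value, and a separate log2 ratio of Cy3 over Cy5, whose normalization is not given in the sources used here. Spots marked as outliers (375 and 300) or as controls were not used. Background correction was by normexp with an offset of 50, and ratios were normalized by loess within each array and averaged over spots of a probe in limma 3.58.1 (R 4.3.3, data.table in version 1.17.8). The median SD between spots of a probe was 0.06 on both arrays (245 probes with at least 5 spots). Levels across arrays used Aquantile. Summaries and plots used Python 3.11.15 with numpy 2.4.6, with pandas 2.3.3 and with matplotlib 3.10.9, and the steps were tested on simulated data.

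A probe counted when well above background in at least 1 channel, by the scanner's mark, and the brightest probe stood for its gene. Where 1 channel was near background, the fold is a lower bound. Of 41174 probes, 8458 were not matched to RefSeq gene names (GRCm38.p6). They were left out of the counts, ranks and lists by gene, but not of the counts by probe. The number of arrays, 1 for each comparison, limits the precision.

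The genes and the 19 lists were chosen with earlier results of these data known. Named are every probe of the receptors and the transporter, Phlda1, all genes of the synthesis and breakdown lists, up to 4 genes of each other list with the largest smaller ratio past 2-fold in both comparisons, Prl, Gh, Pomc and Aanat, and the 5 genes nearest to Drd1a, except a few genes that are not reported here. Crx, Pitx3, Lmx1a, En1, Ret, Gpr6, Gpr52 and Sp9 are named as list genes without a value. Alternatives were offset 0, the scanner's ratio, the deposited ratio, median centring, no normalization, other filters, the scanner's p-value, the median over probes, and quantile normalization or offset 0 for the levels.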

Additional observations from a re-analysis of the deposited data

Results flagged for a closer look

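Drd4 probe 1 had log2 ratios of opposite sign in both comparisons, 0.57 against TDAG51+/+ and -0.87 against TDAG51-/-Tg2, and did so under each of the 6 ways of computing the ratio. The range was 0.50 to 1.42 in the former and -1.32 to -0.87 in the latter. With 1 array for each comparison, the difference was not tested. The intensities behind it were low, between 74.1 and 261 over backgrounds of 39.0 to 47.0, and the other Drd4 probe was near background.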

How the results depend on the processing

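Drd1a kept its direction and stayed past 2-fold under every alternative run, with log2 ratios from -2.67 to -2.44 against TDAG51+/+ and from -2.67 to -2.42 against TDAG51-/-Tg2. Counts of genes past 2-fold among the 6 depended on Drd4. With offset 0, the scanner's ratio or the deposited ratio, 1 gene (Drd4) was higher than in TDAG51+/+ in place of 0, and with these settings or without normalization 2 genes (Drd1a and Drd4) were lower than in TDAG51-/-Tg2 in place of 1. Without normalization, the median log2 ratio of probes above background was -0.19 and -0.25, compared with 0.01 in each comparison after it. Slc6a3 then had 0.27 and 0.37, Drd3 had -0.42 and -0.73, and Drd2 probe 1 was below 0.

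The counts of all probes past 2-fold moved more. Against TDAG51+/+, 1695 probes were higher, compared with 3140 (offset 0), 4024 (scanner) and 3907 (deposited). The number of lower probes was 1527, compared with 2656, 3269 and 3356, and 2854 without normalization. Against TDAG51-/-Tg2, 1595 were higher, compared with 2952, 3793, 3563 and 935 in the same order. Lower were 1304, compared with 2258, 2753, 2906 and 2943. Higher than both were 896, compared with 1552, 2038, 1938 and 582. Lower than both were 457, compared with 821, 1035, 1101 and 1233, and 757 with median centring. The cause was not tested.

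No paired analysis was possible because each comparison has 1 array. Dim probes (Drd4, Drd5 probe 2, Drd2 probe 2) are limited by their signal over background, and a dye effect on any single probe cannot be told apart from a difference between samples.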
